A study of Drosophila melanogaster with 48 samples.

Results

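The 8 genes described here, trp, trpl, norpA, inaC, inaD, ninaC, ninaA and chp, encode proteins of the photoreceptors of the fly eye. Most are ion channels, enzymes or scaffold proteins with which these cells turn light into an electrical signal, while ninaA serves rhodopsin transport and chp cell adhesion. All 8 genes were chosen by symbol, as the rows of the table of reads per gene that carry these names, and are 8 of the 16995 genes in it. In fly photoreceptors a rhodopsin that has absorbed light activates a G protein, which switches on a phospholipase C. The breakdown of membrane lipid that follows opens cation channels in the microvilli of the rhabdomere, the light-sensing organelle, and calcium enters the cell. Most of the proteins involved are bound in a complex by a single scaffold protein, and the whole set is known from the retina, which lies beside the optic lobes of the brain and can stay on a dissected brain in part.

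The study asked how gene transcription in the brain changes after traumatic brain injury when the tissue is exposed to near-infrared light. Flies of 2 strains were used, one labelled Tau-KO and one labelled w1118, a strain with a mutation of the white eye colour gene. For each strain, libraries came from female and male uninjured controls and from injured brains of both sexes at 1, 2 and 4 hr, which gives 16 groups of 3 biological replicates and 48 libraries in all. As the methods describe it, mated adults of 10 to 14 days received 1 strike with a spring device that throws a vial of flies against a pad, an injury of the whole body. Every brain, those of the controls included, was exposed to near-infrared light for 2 hr after dissection, so that all groups share this exposure. The injured and control groups differ by the strike and by the wait from strike to dissection. The same control group of a strain and sex served all times, and when its brains were dissected is not stated. RNA of 1 brain (15 ng) went into a library of 3′ ends of polyadenylated RNA, in which a read marks a transcript end and the count of a gene hardly depends on its length. The sources name neither the allele behind Tau-KO nor the part of tau it removes.

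Assigned counts ranged from 39517 to 1668925 per library, with a median of 582951.5. Reads of tau were at similar levels in the 2 strains, with overlapping ranges, and so do not bear out the label Tau-KO. As the removed part of tau is not named, whether 3′ reads would show its loss is not known. The median of tau was 143 CPM (read counts scaled by library totals with TMM factors) in Tau-KO females and 151 CPM in Tau-KO males. It was 150 CPM in w1118 females and 158 CPM in w1118 males. Medians of the male-specific RNA roX1 were 904 CPM in females and 1010 CPM in males of Tau-KO. In w1118 they were 919 CPM in females and 934 CPM in males. The yolk protein gene Yp1 had medians of 1920 and 1459 CPM in Tau-KO females and males, and of 2019 and 1769 CPM in w1118. Ranges overlapped, so that neither gene separated the libraries labelled female from those labelled male, and no direction between sexes below is checked by these genes. The second replicate of w1118 females at 2 hr was far from the rest, with 53.3 CPM of roX1 (next lowest library 699 CPM) and 13506 CPM of Yp1. Low roX1 with high Yp1 is the female pattern of these genes. The other libraries labelled female had roX1 in or just below the range of those labelled male (749 to 1590 CPM). Whether the sex labels of the other libraries are right was not tested. By a chi-square test over genes, 16 libraries, 8 of each strain, stood apart from every other library, with more than 4 per degree of freedom to the nearest one. The other 32 libraries each had their nearest library in another group, 16 of them in the other sex and 18 in the other strain, and the smallest of these distances was 1.36, above sampling noise. Counts of members that passed are therefore given with and without the libraries that stand apart. The correlations below were not computed without them, and calls of other phototransduction genes are given mainly without single replicates.

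The cation channel genes come first. Trp, which encodes the main light-activated calcium channel, lies on chromosome arm 3R from 29914521 to 29920289 (minus strand, BDGP6 annotation), and had 10417 counts over the 48 libraries. Its level ran from 13.3 CPM to 1658 CPM with a median of 249.9 CPM. Trpl encodes the related channel that carries the remaining light current and lies on 2R from 9753697 to 9765518 on the plus strand, with 5188 counts. Its lowest, median and highest levels were 30.9, 117 and 1129 CPM.

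NorpA encodes the phospholipase C of the cascade and lies on the X chromosome from 4322626 to 4365408 on the plus strand. It was the member with the most counts, 22985, or 41.0% of the 56013 counts of all members, and it varied least, between 414 and 1641 CPM around a median of 873 CPM. InaC encodes the eye-specific protein kinase C that helps to end the response to light. The gene lies on 2R from 16898535 to 16901575 on the plus strand and was barely sampled, with 442 counts in all, a median of 11.1 CPM and no count in 5 libraries. In those 5 libraries a count of 0 allows levels of up to 3.08 to 57.6 CPM (3 counts of the library), so that no absence can be read from them.

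InaD encodes the scaffold that holds channel, phospholipase and kinase together. It lies on 2R from 22855688 to 22858794 on the minus strand, where 7 of its exonic bases (0.3%) overlap exons of the highly expressed RpL23 on the other strand, and it had 5260 counts with a median of 174 CPM and a range of 16.7 to 572 CPM. NinaC encodes a myosin joined to a protein kinase, found in the rhabdomere, and lies on 2L from 7377702 to 7384344 on the plus strand. It had 8986 counts, a median of 312 CPM and a range of 44.4 to 842 CPM. Chp encodes chaoptin, an adhesion protein of the photoreceptor surface that holds the microvilli together, and lies on 3R from 31204180 to 31210730 on the minus strand. With 2735 counts and a median of 57.3 CPM it reached 756 CPM in 1 library and had no count in 3, where 0 allows up to 5.58, 7.96 and 10.2 CPM.

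NinaA encodes a cyclophilin that carries the main rhodopsin of the outer photoreceptors through the secretory pathway. It had 0 counts in each of the 48 libraries and passed no filter, so that no comparison below includes it. The gene lies on 2L from 877302 to 878270 on the plus strand, and all 871 of its exonic bases (100%) fall within exons of CG15824 on the opposite strand, which itself had 16 counts. Of 72 protein-coding genes whose exons are wholly covered in this way, 68 (94.4%) were at 0 in every library, whereas 3427 of 12493 other coding genes (27.4%) were at 0. Reads that fit several genes formed 5.49 to 11.3% of all counts of a library, and whether the counting used the strand is not given in the sources used here. Whether the 0 of ninaA comes from its expression or from the counting was not tested, and it is not read as absence of expression.

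**Figure D1:**
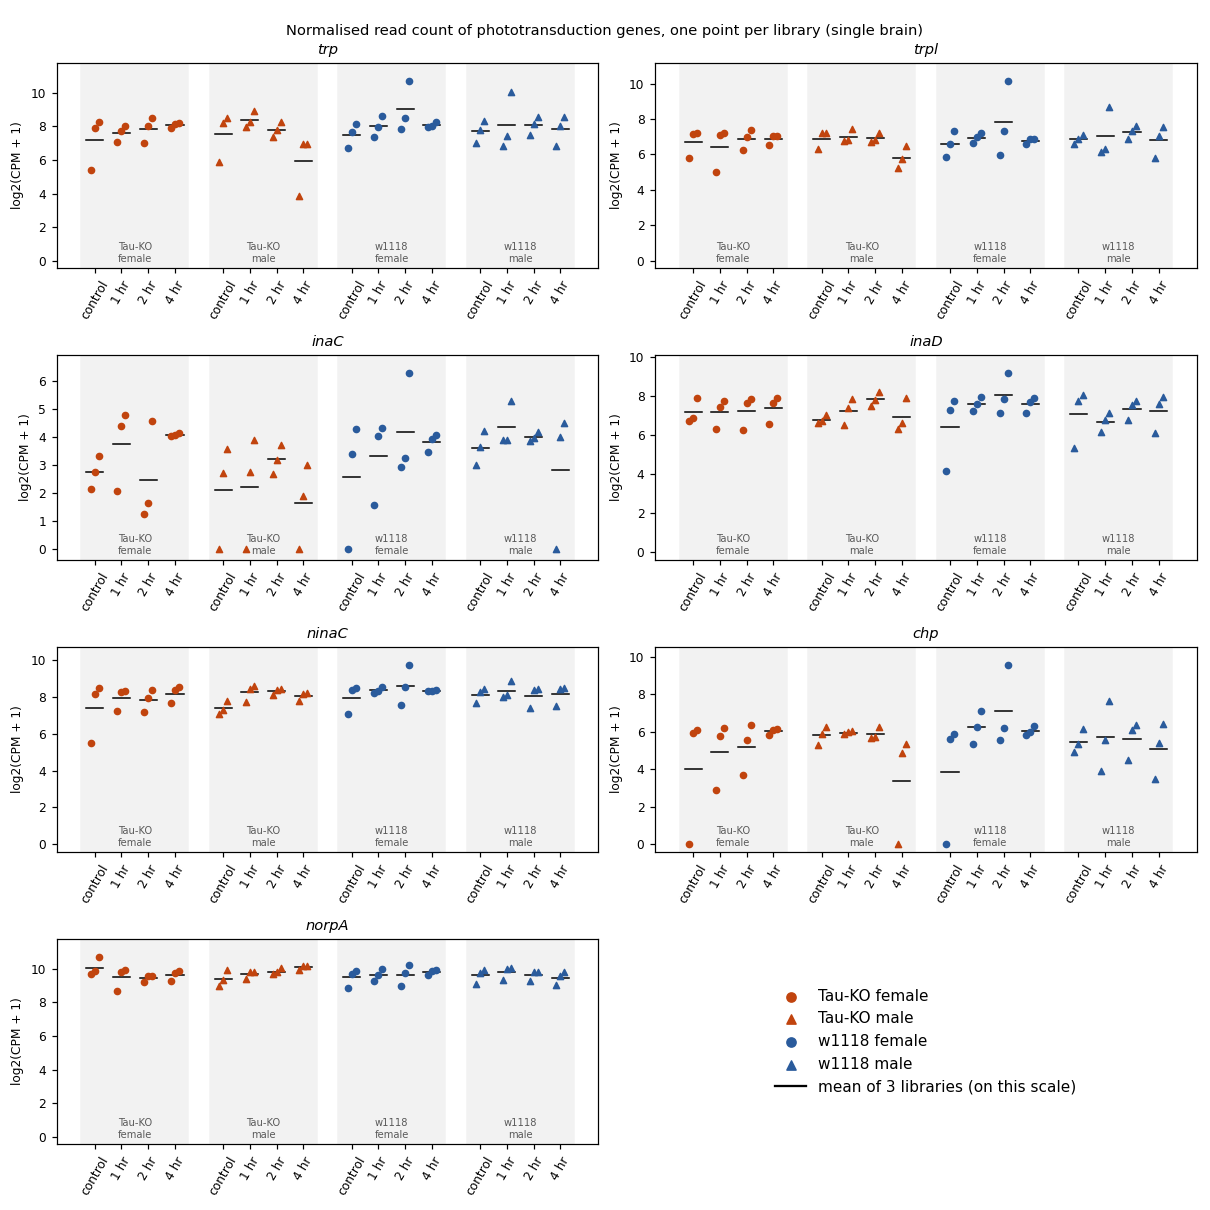
Normalised read count of the 7 phototransduction genes with counts, as log2(CPM + 1) on the vertical axis, in the 16 groups on the horizontal axis, with 1 point per library and a line at the mean of the 3 libraries of a group. The highest point of trp, trpl, inaC, inaD, ninaC and chp is the same library of w1118 females at 2 hr (trp 1658 CPM), whereas norpA stays between 414 and 1641 CPM.

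When the 16 groups were ordered by their mean, neighbouring groups differed by more than their pooled SD in 1 of 15 pairs for trp, in 1 of 15 for norpA and in 0 of 15 for each of trpl, inaC, inaD, ninaC and chp. Neighbours in such an order lie close by construction, so that these counts do not show that the groups are alike. The means of trp ran from 86.9 CPM in Tau-KO males at 4 hr to 747 CPM (SD 791) in w1118 females at 2 hr. The SD of log2 CPM over 48 libraries was 1.39 for chp, larger than that of 99.2% of 5821 genes, and 0.39 for norpA, larger than that of 11.2%. It was 1.03 for trp, 1.02 for inaC, 0.81 for inaD, 0.80 for trpl and 0.62 for ninaC, with a median of 0.80 over all genes.

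The spread was wider in the 16 libraries that stood apart than in the others. NorpA ranged from 414 to 1641 CPM in these 16 libraries, a coefficient of variation of 46.7%, and from 763 to 1125 CPM in the other 32, a coefficient of 9.70% where counting alone would give 5.81%. For ninaC the coefficient was 77.2% in the 16 and 14.7% in the 32 (counting alone 9.82%), and for chp it was 199% and 29.3% (counting alone 23.1%). The summed opsins and arrestins, pigments and their regulators in photoreceptors, varied by 117% in the 16 libraries and by 5.37% in the 32. In the 32 libraries ninaC ran from 135 to 378 CPM, and trp had a coefficient of 31.6%. The 32 were kept because each resembled another library over all genes, so that a narrower spread among them follows in part from that choice. The 16 libraries tend to be deeper, with 292534 to 1668925 counts against 39517 to 1038474 in the 32, and the chi-square used grows with depth.

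In w1118 females the question was whether the brain's phototransduction transcripts changed after the strike. At 2 hr 3 of the 7 members tested rose, chp, trpl and trp, and all 7 fold changes were positive with a median of 1.78 on the log2 scale, against -0.02 over all 5477 genes tested. The call here is an unadjusted p under 0.05 with an absolute log2 fold change over 1, which 5.4% of all genes passed in this comparison. No gene of any kind passed the adjusted threshold in it with edgeR's quasi-likelihood test, and 388 genes had an unadjusted p under 0.05, while DESeq2 passed 1 gene, which is no member. In an edgeR fit without the filter on low counts, chp passed it (adjusted p = 0.0228).

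Chp had 47.1, 756 and 71.7 CPM in w1118 females at 2 hr, against 0, 57.7 and 48.6 CPM in their controls. The libraries of the groups overlapped, and 1 injured library was far above the other injured ones. Its log2 fold change was 3.06 ± 1.01 (SE, n = 3 each; edgeR adjusted p = 0.552). Trpl had 158, 1129 and 61.3 CPM at 2 hr and 57.6, 159 and 93.9 CPM in controls, a log2 fold change of 2.15 ± 0.74 (edgeR adjusted p = 0.57). Trp had 229, 1658 and 355 CPM at 2 hr and 106, 276 and 201 CPM in controls, a log2 fold change of 1.97 ± 0.71 (edgeR adjusted p = 0.57). In both channel genes the second replicate at 2 hr was far above the other 5 libraries, which overlapped between injured and control brains. No member had all 3 injured libraries above or below all 3 controls, as 6.96% of 5821 genes did.

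The other members at 2 hr in w1118 females had the same library on top. InaC had 8.56, 78.1 and 6.6 CPM, against 0, 9.36 and 18.4 CPM in controls (log2 fold change 1.78 ± 1.01). InaD had 229, 572 and 136 CPM, against 16.7, 208 and 154 CPM in controls (1.32 ± 0.67), and ninaC had 370.3, 842 and 184 CPM, against 132, 329 and 350.5 CPM (0.80 ± 0.44). NorpA, at 871, 1194 and 496 CPM against 463, 836 and 932 CPM in controls, had the smallest value, 0.21 ± 0.33. These 4 genes did not pass the test, although inaD did with DESeq2 (1.43), with its size factors, without a filter and with the replicate block, which makes 4 members in place of 3, and the same 2 libraries lay at the ends of the range, since the second replicate at 2 hr was the highest of all 48 in 6 of the 7 members and the first control replicate was among the 6 lowest in all 7.

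Without the second replicate at 2 hr, 0 of the members passed, and the values of chp, trp and trpl were 0.73, 0.58 and 0.04 on the log2 scale. Without the third replicate 6 passed. In the fit without the libraries that stand apart, which leaves 1 library at 2 hr and assumes that it varies like the other groups, 0 passed and chp, trp and trpl gave -0.17, -0.06 and 0.32. Without the first control replicate chp and trpl still passed and trp, at 1.65, did not. Markers moved with the members in the same library. Its summed opsins and arrestins reached 31746 CPM, the most of all 48 libraries (7 of 7 genes detected, lowest 2027 and median 6888 CPM), and its lens and pigment cell genes reached 2400.2 CPM against a median of 644 CPM. Its fat body genes were also the highest, at 20525 CPM against a median of 3920 CPM, while its neuron genes (1000.1 CPM), glia genes (858 CPM) and muscle genes (200.02 CPM) were the lowest of 48. Among the genes of the sex check, its roX1 (53.3 CPM) was the lowest of 48 and its Yp1 (13506 CPM), which is in the fat body list, the highest. The part of these tissues in the result was not tested, and in whole brains more cells of a type and more RNA per cell cannot be told apart.

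At 1 hr and 4 hr in w1118 females 0 of 7 members passed, where 0.749% and 1.15% of all genes did. All 7 fold changes were positive at both times, between 0.09 (norpA) and 1.25 (chp, SE 0.98) at 1 hr and between 0.08 (trpl) and 0.88 (chp, SE 1.00) at 4 hr. The comparisons at 1, 2 and 4 hr share the same 3 control libraries, 1 of which was low in all members.

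In w1118 males 0 of 7 members passed at 1, 2 or 4 hr, where 1.7%, 0.913% and 0.621% of all genes did. No member passed the adjusted threshold of edgeR or of DESeq2, and none had an unadjusted p under 0.05 in the edgeR fit with the filter and all libraries. In the edgeR fit without a filter trp at 1 hr had an unadjusted p of 0.0439, with a log2 fold change of 0.98, under the limit. Trp had 169, 1038 and 111 CPM at 1 hr, against 223, 129 and 318 CPM in controls, so that the groups overlapped around 1 high library. Its log2 fold change was 1.07 ± 0.69, that of chp was 1.15 ± 0.97 and that of trpl 0.83 ± 0.73. The same second replicate at 1 hr was above the other 5 libraries for trpl (415 CPM), inaC (38.2 CPM), ninaC (465 CPM) and chp (201 CPM), and its opsins and arrestins, at 8658 CPM, were the second highest of the series. At 2 hr and 4 hr the fold changes of the members lay between -0.12 (norpA, 4 hr) and 0.44 (trpl, 2 hr).

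InaD went the other way in w1118 males at 1 hr, with 108, 137 and 69.5 CPM against 214, 39.6 and 259 CPM in controls (log2 fold change -0.60 ± 0.69). Without the libraries that stand apart, which are the second replicates of both groups, it was the only member to pass, at -1.25 (edgeR adjusted p = 0.28). One of the remaining injured libraries had only 59781 counts.

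In Tau-KO females 0 of the 6 members tested passed at 1, 2 or 4 hr, where 4.11%, 4.03% and 2.21% of all genes did. InaC was below the filter in Tau-KO and was not tested. The channel genes did not pass, with log2 fold changes of -0.01, 0.31 and 0.43 for trp and of -0.19, 0.08 and 0.04 for trpl at 1, 2 and 4 hr, each with an SE between 0.44 and 0.56. Trp had 210.4, 134 and 259 CPM at 1 hr, 128, 367 and 255 CPM at 2 hr and 289, 284 and 241 CPM at 4 hr, against 243, 40.9 and 309 CPM in controls. These ranges overlapped at every time.

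NorpA was the member of Tau-KO females with the lowest p, and its fold change stayed under the limit of 1. It had 593, 763 and 764 CPM at 2 hr, against 918, 1641 and 818 CPM in controls, so that all 3 injured libraries lay below all 3 controls, as 4.43% of genes did. The log2 fold change was -0.67 ± 0.29 (edgeR adjusted p = 0.72). Without the second control replicate, the highest norpA library of all 48, it was -0.30, and without the libraries that stand apart -0.17. At 4 hr inaC had 15.2, 15.9 and 16.5 CPM, all above 5.65, 3.41 and 9.06 CPM in controls, as 4.72% of genes were, with a log2 fold change of 1.27 ± 1.04 in the fit without a filter.

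In Tau-KO males inaD, ninaC and norpA had positive fold changes at all 3 times and trpl negative ones, and different members passed at 2 hr and at 4 hr, a difference between times that was not tested. At 1 hr 0 of 6 passed (3.21% of all genes), and trp, at 248, 476 and 304 CPM against 57.6, 292 and 357 CPM in controls, gave 0.35 ± 0.56. At 2 hr 1 of 6 passed, inaD, in a comparison in which 5.48% of all genes did. InaD had 175, 293 and 219 CPM, against 96.1, 126 and 102 CPM in controls, with all injured libraries above all controls, as 9.71% of 5821 genes had. Its log2 fold change was 1.01 ± 0.48 (edgeR adjusted p = 0.686). It passed in 3 of 12 alternatives, and the values over the 12 lay between 0.80 and 1.24. NinaC, with 274, 348 and 328 CPM against 135, 156 and 222 CPM in controls, also had no overlap and gave 0.79 ± 0.45. The first control replicate held only 39517 counts, of which norpA had 50 and trp 3.

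At 4 hr in Tau-KO males trp and trpl fell, 2 of the 6 members tested. This was the comparison with the most calls of the 12 after injury, 18.6% of all 5015 genes, and 2 of 6 is read against that share. Trp had 124, 13.3 and 123 CPM at 4 hr, against 57.6, 292 and 357 CPM in controls. The groups overlapped through the shallow control library, and the lowest value of trp in the series was the second replicate at 4 hr. Depth differed as well, with 134970, 340255 and 265717 counts in the injured libraries against 39517, 891279 and 1198452 in controls. The part of depth in the result was not tested. The log2 fold change was -1.71 ± 0.63 (edgeR adjusted p = 0.122; DESeq2 adjusted p = 0.0834). Trpl had 52.4, 37.2 and 87.9 CPM, against 76.9, 146 and 144 CPM in controls, a log2 fold change of -1.19 ± 0.49 (edgeR adjusted p = 0.158). Only the third injured library of trpl lay above a control.

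Chp pointed the same way at 4 hr without passing, with 39.3, 0 and 28.1 CPM against 57.6, 38.2 and 76.7 CPM in controls (-1.58 ± 0.96), although it passed in the fit without a filter, the third member to do so there. NorpA pointed the opposite way, with 982, 1133 and 1125 CPM against 961, 631 and 511 CPM in controls. All of its injured libraries lay above all controls, as in 7.95% of genes, with a log2 fold change of 0.64 ± 0.30 (edgeR adjusted p = 0.2), under the fold limit. NinaC and inaD, at 0.55 ± 0.46 and 0.28 ± 0.50, did not pass. The median over the 6 members was -0.45, against -0.02 over all genes, of which 1167 had an unadjusted p under 0.05 and 0 passed the adjusted threshold with edgeR, while DESeq2 passed 145, with no member among them.

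No member passed without the third control replicate or without the second replicate at 4 hr, where trp gave -1.38 and -1.11. Without the second control replicate or the first replicate at 4 hr trp still passed and trpl, at -1.08 and -1.13, did not. Without the shallow first control, trp passed the adjusted threshold, at -1.99 (edgeR adjusted p = 0.0431), and it did so too in the fit without a filter (edgeR adjusted p = 0.00121). In the fit without the libraries that stand apart, which leaves only that shallow control, with 3 counts of trp and 7 of ninaC, and assumes that it varies like the other groups, trp was at 1.06 and trpl at -0.09, and ninaC alone passed, at 1.09. Values against that single library at 1 hr and 2 hr are not read as changes. The summed opsins and arrestins had 6938, 4825 and 7650 CPM at 4 hr against 6341, 4858 and 4476 CPM in controls, although Arr1 alone was at -0.98 ± 0.37, and neuron genes had 2363, 2179 and 2436 CPM at 4 hr against 1729, 1432 and 1304 CPM in controls. The part of these cell types in the result was not tested.

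**Figure D2:**
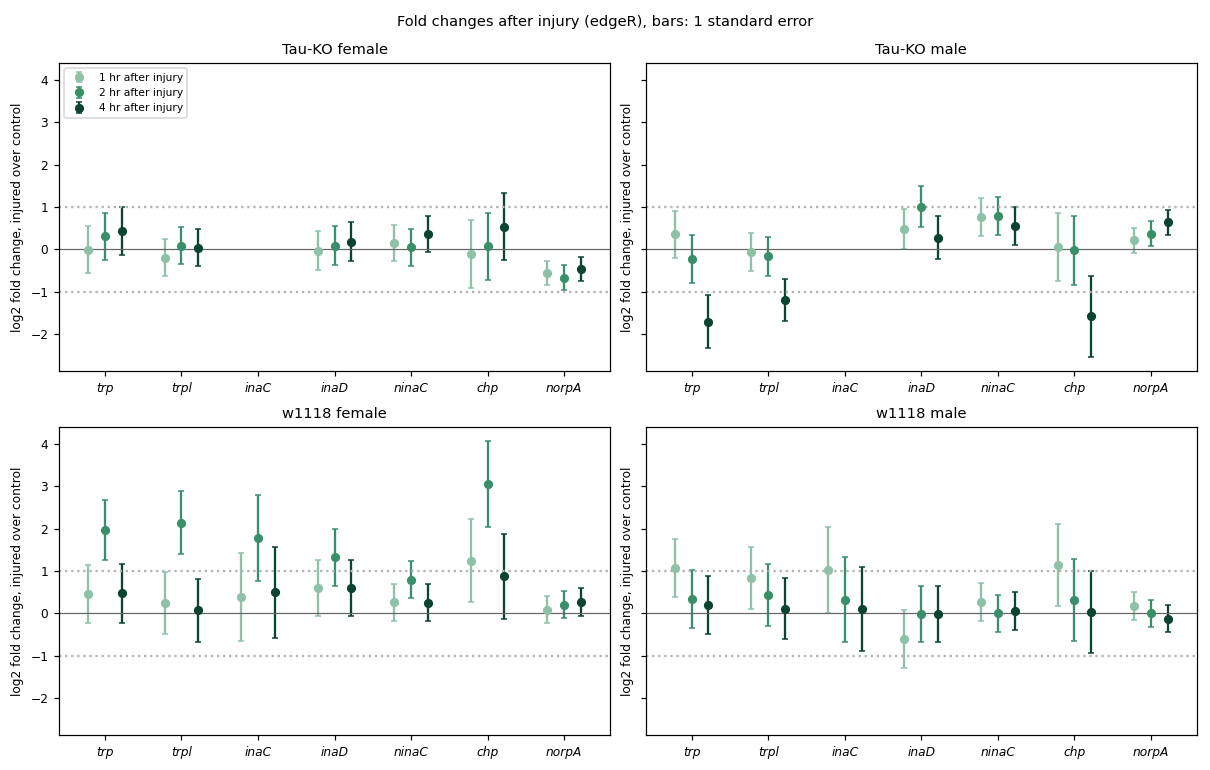
Log2 fold change of each phototransduction gene in injured brains (1, 2 and 4 hr) over its control, from edgeR with bars of 1 SE, in Tau-KO females and males (upper panels) and w1118 females and males (lower panels), with dotted lines at the fold limit of 1. The 2 hr points of w1118 females lie highest (chp 3.06) and the 4 hr points of trp, chp and trpl in Tau-KO males lie lowest (-1.71, -1.58 and -1.19), while inaC has no point in Tau-KO because it was below the filter.

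Whether the response to injury differed between the sexes was tested as the female response minus the male response. In w1118 0 of 7 members passed at 1, 2 and 4 hr, where 1.5%, 3.36% and 1.24% of all genes did. At 2 hr all 7 differences were positive, the largest being that of chp, 2.75 ± 1.38 (edgeR adjusted p = 1), and chp passed with DESeq2's size factors (2.88) and with the replicate number as a block (2.57). At 1 hr without the libraries that stand apart, inaD passed at 1.51 (edgeR adjusted p = 0.873).

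In Tau-KO 0 of 6 members passed at 1 hr (6.52% of all genes), 1 of 6 at 2 hr (12.5%) and 2 of 6 at 4 hr (21.5%). NorpA passed at 2 hr with a difference of -1.04 ± 0.41 (edgeR adjusted p = 0.342) and at 4 hr with -1.10 ± 0.42 (edgeR adjusted p = 0.14). Its log2 fold changes were -0.67 in females and 0.37 in males at 2 hr, and -0.46 in females and 0.64 in males at 4 hr. Trp passed at 4 hr with 2.14 ± 0.84 (edgeR adjusted p = 0.147), from 0.43 in females and -1.71 in males. The 3 times share their 6 control libraries, of which the second female control had the highest norpA of all 48 libraries and only 40.9 CPM of trp. In the fit without a filter trp passed the adjusted threshold at 4 hr (2.09, edgeR adjusted p = 0.00359), and so did norpA without libraries under 100000 counts (-1.39, edgeR adjusted p = 0.0426). Without second replicates norpA gave -0.73 at 2 hr and -0.49 at 4 hr and trp gave 1.08 at 4 hr, none of which passed, while ninaC passed at 2 hr (-1.25). Without the third replicates norpA passed at neither time (-0.95 and -1.09). Without the libraries that stand apart norpA gave -0.06 at 2 hr and -0.03 at 4 hr, and trp gave -1.14 at 4 hr.

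Between the strains, Tau-KO minus w1118 over the mean of the 4 conditions, 0 of 7 members passed in females, where 1.07% of all genes did, and 1 of 7 in males, where 2.61% did. That gene was inaC, with a lowest, median and highest level of 0, 5.69 and 13.9 CPM in 12 libraries of Tau-KO males, against 0, 14.3 and 38.2 CPM in 12 libraries of w1118 males. The ranges overlapped, and the log2 fold change was -1.30 ± 0.57 (edgeR adjusted p = 0.872), with few reads behind it, a median of 6 counts per library over the series. The call was lost without second replicates, where inaC was below the filter, and without the libraries that stand apart (-2.11). In females 6 of 7 values were below 0, with chp at -0.85 ± 0.47 and ninaC at -0.42 ± 0.23, and the high library of w1118 females at 2 hr enters this comparison. NorpA was close to equal, with 0.03 ± 0.16 in females and 0.10 ± 0.16 in males.

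Between the sexes, female minus male over the same 4 conditions, 0 of 7 members passed in w1118 (0.31% of all genes) and 0 of 6 in Tau-KO (0.897%). The values lay between -0.06 (inaC) and 0.56 (chp, SE 0.48) in w1118 and between -0.05 (ninaC) and 0.16 (trp, SE 0.29) in Tau-KO. Of 144 tests of members over the 22 comparisons, 12 had an unadjusted p under 0.05 in the edgeR fits with the filter and all libraries. With adjustment over all genes 0 passed in these fits or in DESeq2, although some did in the alternatives given above.

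Over the 48 libraries 6 of the members varied together, and norpA was correlated with few of them. The correlation of log2 CPM was computed for the 21 pairs of the 7 genes with counts, with permutation p-values (100000 resamples, smallest possible 1e-05) adjusted over the 21. All 15 pairs among trp, trpl, inaC, inaD, ninaC and chp passed, with Pearson's r between 0.50 and 0.84 (largest adjusted permutation p = 0.000984). Trp and chp were the closest, with r = 0.84 and rho = 0.77 over 48 libraries (adjusted permutation p = 2.33e-05 for r), 0.76 without the 2 libraries farthest from the median, 0.89 within w1118 and 0.81 within Tau-KO. The channel genes trp and trpl had r = 0.79 and rho = 0.68 (adjusted permutation p = 2.33e-05), and 0.72 without the 2 farthest libraries. Taken within strains the 15 pairs lay between 0.51 and 0.89 in w1118 and between 0.37 and 0.81 in Tau-KO, and with each group centred on its mean between 0.50 and 0.84. Libraries share depth and a scaling factor, and no pair was tested against them. The share of all gene pairs that pass was not computed, so that 15 of 15 is not read as particular to these genes. Values without the libraries that stand apart were not computed.

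Of the 6 pairs with norpA, 1 passed by Pearson's r, that with inaD (r = 0.51, rho = 0.30, adjusted permutation p = 0.000364), and 2 by Spearman's rho. The second of these was the pair with trp, where rho was -0.32 (adjusted permutation p = 0.0359) and r was -0.19 (adjusted permutation p = 0.214). The pair of norpA and trp differed between strains in its r, 0.24 in w1118 and -0.48 in Tau-KO. All 6 pairs with norpA were positive within w1118, with r between 0.24 and 0.72. Within Tau-KO they lay between -0.48 and 0.33, and with each group centred on its mean between -0.09 and 0.63. These differences between strains were not tested.

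**Figure D3:**
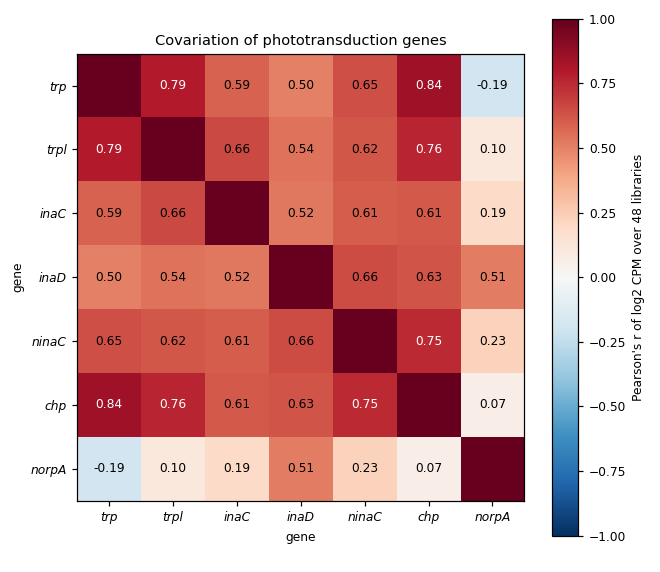
Pearson's r of log2 CPM over 48 libraries for each pair of the 7 phototransduction genes with counts, written in each cell and shown by colour from -1 to 1. The 6 genes other than norpA have r of 0.50 or more with each other, and norpA lies between -0.19 (trp) and 0.51 (inaD).

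The members also followed the opsins and arrestins, 7 genes (ninaE, Rh3, Rh4, Rh5, Rh6, Arr1 and Arr2) for the visual pigments of photoreceptors and the proteins that switch them off. The sum of the members had r = 0.95 and rho = 0.79 with the sum of these genes over 48 libraries (permutation p = 1e-05 for both, the smallest possible), 0.90 without the 2 farthest libraries, 0.97 within w1118 and 0.87 within Tau-KO. Without norpA, which makes up 41.0% of the members' counts, the other 6 had r = 0.80 and rho = 0.68 (permutation p = 1e-05), 0.90 within w1118 and 0.60 within Tau-KO. Single members had r between 0.52 for trp and 0.81 for inaD in this family of 9 relations, all past an adjusted permutation p of 0.05, with 0.65 for norpA (rho 0.42). The share of other genes that pass this test was not computed, nor were values without the libraries that stand apart.

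The 6 members without norpA were also correlated with genes of lens and pigment cells of the eye (r = 0.89, rho = 0.74, permutation p = 1e-05; 0.79 without the 2 farthest libraries; 0.88 in each strain). With the neuron genes they had r = -0.27 (rho = -0.18, permutation p = 0.066). NorpA had r = 0.62 and rho = 0.73 with the neuron genes (permutation p = 1e-05, 2e-05 after adjustment over 2 relations), which was 0.33 within w1118 and 0.87 within Tau-KO. The sum of the 6 was 259 CPM in the lowest library, a Tau-KO female control, and 5035 CPM in the highest, against a median of 928 CPM.

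**Figure D4:**
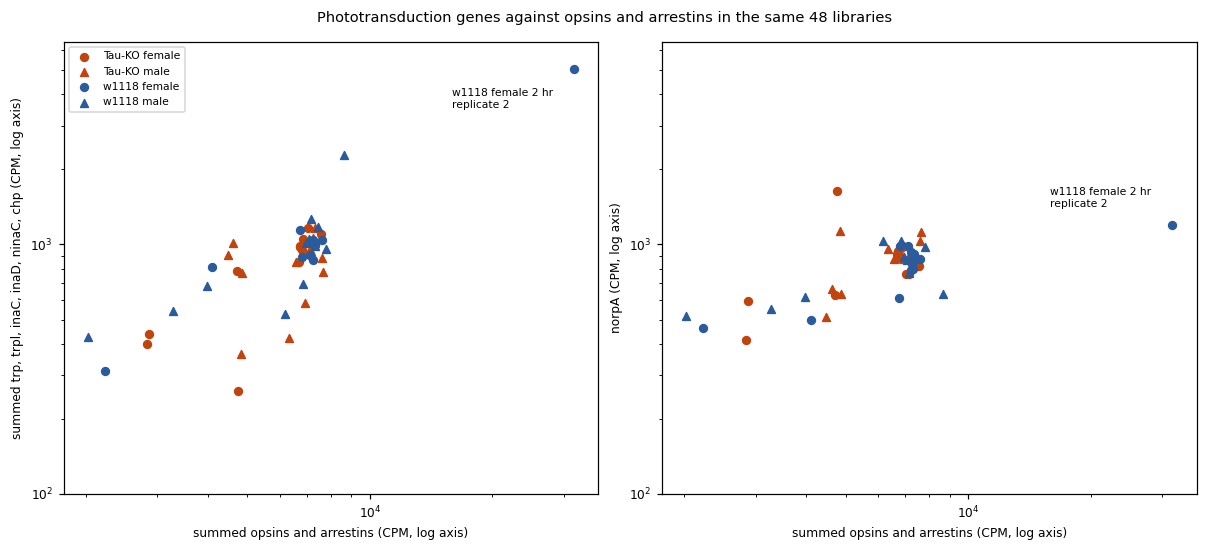
Summed CPM of trp, trpl, inaC, inaD, ninaC and chp (left) and CPM of norpA (right) against the summed CPM of opsins and arrestins, on log axes, with 1 point per library. The second replicate of w1118 females at 2 hr lies alone at 31746 CPM of opsins and arrestins, where the 6 genes reach 5035 CPM and norpA 1194 CPM, and the median library has 6888 CPM.

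Of 37 other genes of fly phototransduction and visual pigment in a list, 35 had a row in the table, 34 had counts, and 25 were tested in w1118 and 23 in Tau-KO. In w1118 females at 2 hr 7 of 25 rose, where 5.4% of all genes passed, with a median of 1.02. Those with the smallest p were Arr1, an arrestin (2.59 ± 0.70, edgeR adjusted p = 0.505), Rh4, an ultraviolet opsin of the inner photoreceptors (2.52 ± 0.79), Cpn, a calcium buffer of photoreceptors (1.93 ± 0.69), and Rh3, the other ultraviolet opsin (2.55 ± 0.93). Without the second replicate at 2 hr Rh3 gave -0.06 and Arr1 0.61. At 1 hr 1 of 25 fell, Calx, the sodium and calcium exchanger of photoreceptors (-2.001 ± 0.88), and at 4 hr 2 fell, Rh5, a blue opsin (-2.29 ± 0.97), and ninaB, an enzyme of visual pigment synthesis (-1.77 ± 0.80), where 0.749% and 1.15% of all genes passed. Without the first control replicate none of these 3 passed, with Calx at -1.62, Rh5 at -1.66 and ninaB at -0.91, and Calx also lost its call without any single replicate at 1 hr, as did ninaB without any at 4 hr.

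In w1118 males Hdc, which makes the photoreceptor transmitter histamine, rose at 1 hr (3.88 ± 1.17), at 2 hr (2.85 ± 1.18) and at 4 hr (3.004 ± 1.18), against the same 3 controls and with an edgeR adjusted p of 1 each. Rtp, which encodes the photoreceptor protein retinophilin, rose at 1 hr (3.33 ± 1.23), and the remaining genes of the list did not pass in w1118 males (1.7%, 0.913% and 0.621% of all genes). Without the second replicate at 1 hr Hdc gave 1.60 and rtp 1.38, and neither passed. The call of Hdc was also lost without the second control replicate at 2 hr (2.63) and at 4 hr (2.77), without the third control replicate or the second replicate at 2 hr, and without the first replicate at 4 hr. In Tau-KO 0 of 23 passed in females at any time and in males at 1 and 2 hr, and 1 fell in males at 4 hr, Rh7, an opsin known from clock neurons of the brain (-2.46 ± 0.82, edgeR adjusted p = 0.109), a share below the 18.6% of all genes that passed. Without the third control replicate Rh7 gave -1.90 and did not pass. For the female minus male response in w1118, 3 genes passed at 1 hr, with lower values in females (Calx, Hdc, Rh5), 3 at 2 hr with higher values (Arr1, Cpn, Rh4) and 3 at 4 hr with lower values (Hdc, Rh5, ninaB), of 25 each time, against 1.5%, 3.36% and 1.24% of all genes. Of these, none at 2 hr passed without second replicates (Arr1 0.58, Cpn 1.26, Rh4 1.04), none at 4 hr without first replicates (Hdc -2.61, Rh5 -1.79, ninaB -0.40), and at 1 hr Rh5 gave -0.56 without second replicates and Calx passed in no fit that left out 1 replicate number. In Tau-KO rdgB, a lipid transfer protein of the cascade, was lower at 2 hr (-1.59 ± 0.63) and 4 hr (-1.47 ± 0.63), and Arr1 was higher at 4 hr (1.51 ± 0.51), of 23 genes each, against 12.5% and 21.5% of all genes. At 4 hr neither passed without second replicates (rdgB -0.97, Arr1 0.76), and rdgB passed at neither time without the third replicates. Between strains 1 of 26 passed, rtp in females (-1.47 ± 0.62; 1.07% of all genes), which gave -0.28 without second replicates and did not pass, and between sexes 0 of 25 in w1118 and 0 of 23 in Tau-KO passed.

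The genes most like the members over the 48 libraries were ranked by Spearman's rho with the sum of the members, among 5814 other genes tested, as a description. The highest were CG11426 (0.74), Cpr72Ec, a cuticle protein (0.72), CG8369 (0.71), Men-b (0.69) and SmydA-8 (0.68), followed by the opsins Rh6 (0.66) and Rh3 (0.65) and Ggamma30A, the G protein gamma subunit of the visual cascade (0.64). With each group centred on its mean, Arr2 came first (0.85), before CG11426 (0.84), Cpr72Ec (0.82), Cpr49Ag (0.81) and CG9505 (0.78). Without norpA in the sum the order was led by boss, a membrane protein known from the developing photoreceptor cluster (0.79), ninaE, the main rhodopsin (0.76), and Arr1 (0.74), and after centring by ninaE (0.89), Arr1 (0.86), CG9427 (0.85) and Cpn (0.83).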

How the data were processed

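The authors sequenced 3′-end libraries of single brains and deposited whole-number read counts per gene, which the submitters' notes trace to CASAVA 1.8.2, STAR 2.4, HTSeq and the dm3 build. Further deposited columns hold the authors' own comparisons (log2 fold changes, log2 CPM, likelihood ratios, p-values and false discovery rates, from edgeR 3.22.3) and were not used. Here 5 rows that name no gene (23.1 to 52.8% of counts per library) were left out. Assigned counts ran from 39517 to 1668925 per library, and limits for a count of 0 cover counting error only. No unused sample column was present (0).

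Counts were filtered with filterByExpr, scaled with TMM and tested with edgeR 4.0.16 (glmQLFit and glmQLFTest, R 4.3.3), within each strain over 24 libraries (5477 genes in w1118, 5015 in Tau-KO) and over all 48 for the strain comparison (5821 genes), with Benjamini-Hochberg adjustment over all genes. A call is an unadjusted p under 0.05 with an absolute log2 fold change over 1, and the adjusted threshold is also 0.05. Levels are CPM with TMM over 48 libraries, and log2 CPM for correlations used a prior count of 2. Replicates are separate brains. The scripts were tested on simulated data.

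All members are named, of the pathway list at most the 4 genes with the smallest p per comparison (genes below that are counted), and of other genes the 10 most alike. The members and lists were chosen with earlier results of these data known. The sum without norpA and the likeness to norpA alone were chosen after its values had been seen. Alternatives were DESeq2 1.42.0, edgeR with DESeq2's size factors or with all genes kept, replicate numbers as a blocking term, and leaving out single replicates, libraries under 100000 counts or libraries that stand apart. Same-numbered injured and control libraries deviated together in every pair only in w1118 males at 1 hr (correlations of 0.47, 0.67 and 0.20 over 2000 genes), where the blocked fit called 0 members. Positions come from the BDGP6 annotation and were not converted to dm3.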

Additional observations from a re-analysis of the deposited data

Results flagged for a closer look

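Of the members, 3 differences between the sexes in the response to injury passed the test of the difference itself, all in Tau-KO. NorpA differed by -1.04 on the log2 scale at 2 hr and by -1.10 at 4 hr, and trp by 2.14 at 4 hr (female response minus male response, edgeR, unadjusted p under 0.05, with adjusted p of 0.342, 0.14 and 0.147). In alternatives at 4 hr trp passed the adjusted threshold without a filter (edgeR adjusted p = 0.00359) and norpA without libraries under 100000 counts (-1.39, edgeR adjusted p = 0.0426). All 3 differences passed the call without replicate 1 of each group. Without replicate 2 none of them passed, with norpA at -0.73 (2 hr) and -0.49 (4 hr) and trp at 1.08. Without replicate 3 only trp passed. In the fit without the libraries that stand apart, which keeps a single Tau-KO male control, trp changed sign and the norpA differences nearly vanished. The 3 differences rest on 12 libraries each, with the same 6 controls at both times. In these comparisons 12.5% and 21.5% of all genes passed. Groups of 3 libraries were not searched for single outlying values.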

How the results depend on the processing

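The number of members that passed changed as follows. Without the libraries that stand apart it was 0 in w1118 females at 2 hr, 1 in w1118 males at 1 hr, 2 in Tau-KO males at 1 hr, 2 at 2 hr and 1 at 4 hr, 1 for the w1118 response at 1 hr, 2 for the Tau-KO response at 1 hr, 2 at 2 hr and 0 at 4 hr, and 0 for strain in males, in fits where Tau-KO male controls and w1118 females at 2 hr keep 1 library, which is assumed to vary like the other groups. In w1118 females at 2 hr it was 4 with DESeq2, its size factors, no filter and the block, and in Tau-KO males at 4 hr it was 3 without a filter. With DESeq2's size factors it was 0 in Tau-KO males at 2 hr, 1 for the w1118 response at 2 hr and 0 for the Tau-KO response at 2 hr, and with DESeq2 it was 0 in Tau-KO males at 2 hr and 0 for the Tau-KO response at 2 hr. Without a filter it was 3 for the w1118 response at 2 hr and 4 for the Tau-KO response at 4 hr. Without libraries under 100000 counts it was 0 in Tau-KO males at 2 hr and 1 for the Tau-KO response at 1 hr. With the replicate block it was 1 for the w1118 response at 2 hr (chp, 2.57), and apart from that and w1118 females at 2 hr the block changed no count of members. Leaving out single replicates gave 0 to 6 in w1118 females at 2 hr, 0 to 1 in Tau-KO males at 2 hr, 0 to 2 in Tau-KO males at 4 hr, 0 to 1 for the w1118 response at 1 hr, 0 to 1 for the Tau-KO response at 1 hr, 0 to 1 at 2 hr and 0 to 2 at 4 hr, and 0 to 1 for strain in females and 0 to 1 in males. Directions turned for chp (-0.17), ninaE (-0.047) and trp (-0.055) in w1118 females at 2 hr, trp in Tau-KO males at 4 hr (1.06), Rh5 in the w1118 response at 1 hr (0.12), Arr1 in that at 2 hr (-0.22), and Arr1 (-0.33) and trp (-1.14) in the Tau-KO response at 4 hr, all without the libraries that stand apart. With single replicates left out of w1118 females at 2 hr, Rh3 lay between -0.057 and 3.08 and ninaE between -0.067 and 1.51. The median of all genes moved by up to 0.44 without the libraries that stand apart, 0.19 without a filter, 0.15 without first replicates and 0.11 with DESeq2. The cause of these changes was not tested. Depth limits inaC most, with a median of 6 counts per library.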

Other observations

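The highest Spearman correlations of norpA over 48 libraries, ranked among 5814 genes as a description and with norpA taken alone after its values had been seen, were with IM23, an immune-induced peptide of the blood (0.87), Swip-1 (0.86), the ribosomal protein gene RpLP0 (0.86), CG2254 (0.86), CDase (0.86) and Lsp2, a storage protein of the fat body (0.86). With each group centred on its mean, unc80, a subunit of a sodium leak channel of neurons, came first (0.88), before CG9769 (0.87), Lsp2 (0.87) and CG1703 (0.86). No opsin or arrestin was among the first 10 of either ranking. The cells its reads came from were not tested.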
